A study of Mus musculus with 3 samples.

Results

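Leukocytes are told apart by the proteins on their surface, and the genes of 81 such surface antigens and cytokine receptors were followed here in liver against spleen of the mouse. They were taken by symbol from the platform annotation: the CD antigens (symbols in Cd with a number), the C-type lectin (Clec) and killer cell lectin-like (Klr) families, the Fc receptors, the integrins, the tumour necrosis factor (TNF) receptor family (Tnfrsf), chemokine and interleukin receptors, and the Ly6 family. Of 91 genes with such symbols, 10 were left out by name (Cd2ap, Cd2bp2, Cd3d, Cd3g, Cd8a, Cd53, Cd74, Cd83, Clec1b and Il2rb), which left 81 of 7984 named genes, on 115 of 16273 spots. The rule used no measured value, but it was chosen with earlier results of these data known. Itgb1bp1 and Itgb1bp2 bind integrin tails, Clec16a acts in the endosomal system and Clec11a is secreted, so these 4 carry a family symbol without being surface receptors.

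The study has 1 group of 3 spotted cDNA arrays. On each, amplified cRNA of spleen labelled with Cy3 (green) competed with that of liver labelled with Cy5 (red), both made by 2 rounds of amplification from commercial total RNA, with no strain, age or sex in the labels used here. No array exchanged the dyes, so dye and tissue cannot be told apart. The labels do not say whether the 3 arrays came from separate animals, so the p-values measure only the spread between arrays, which may be technical.

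Each value is a log2 ratio of the 2 channels, with an exact 0 taken as a missing ratio. Positive ratios are called higher in liver, a direction that is likely rather than stated. It rests on genes that are not members: the fibrinogen chain Fgb averaged 4.14 and the thyroid hormone carrier Ttr, measured on array 1 only, 4.19, whereas the B-cell genes Ms4a1, Cr2 and Ighm averaged -3.93, -3.30 and -2.73. Between 11120 and 15210 spots had a ratio on an array, and array 2 had the fewest. Of 12 markers of the liver's sinusoidal endothelium and resident macrophages (Stab2, Lyve1, Marco, Vsig4, Timd4, Adgre1, Cdh5, Csf1r, C1qa, C1qb, C1qc and Mrc1), 0 could be tested on all 3 arrays.

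Spleen is a lymphoid organ packed with B cells, T cells, macrophages and dendritic cells, while most liver RNA comes from hepatocytes. Surface receptors of leukocytes read their surroundings: C-type lectins bind sugars, Fc receptors bind antibody, integrins bind matrix and other cells, and cytokine receptors bind soluble or membrane-bound ligands. Many signal through short tyrosine motifs, the activating ITAM or the inhibitory ITIM, carried by the receptor or by an adaptor such as the Fc receptor gamma chain. In RNA of whole tissues, fewer cells of a type and less RNA per cell cannot be told apart.

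The RefSeq sequence upstream of the start is shown for 5 members, those with the largest mean ratios among the tested ones: Itgb7, Clec4a2 and Cd63 on the spleen side and Tnfrsf12a and Cd164 on the liver side. Each run is the 250 bases before 1 annotated transcript start, 5′ to 3′ on the strand of the gene (build GRCm38.p6). Capitals mark a match, on either strand, to one of 3 cores that were searched: GAGGAAG, the core bound by the myeloid and B-cell factor PU.1 and related ETS factors; TGTGGTT, the Runx core; and CAAAGTC, the core of the hepatocyte factor HNF4.
Itgb7, chr15:102231936-102232185, minus strand: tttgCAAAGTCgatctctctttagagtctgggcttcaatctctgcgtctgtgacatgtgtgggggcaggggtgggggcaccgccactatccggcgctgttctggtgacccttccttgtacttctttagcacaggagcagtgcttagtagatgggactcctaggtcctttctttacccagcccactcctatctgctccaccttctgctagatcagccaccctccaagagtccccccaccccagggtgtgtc
Clec4a2, chr6:123122440-123122689, plus strand: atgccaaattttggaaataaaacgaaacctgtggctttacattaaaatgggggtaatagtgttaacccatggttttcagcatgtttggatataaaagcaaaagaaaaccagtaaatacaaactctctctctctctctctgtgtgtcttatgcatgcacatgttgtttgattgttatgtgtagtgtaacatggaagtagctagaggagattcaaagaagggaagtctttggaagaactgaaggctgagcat
Cd63, chr10:128909095-128909344, plus strand: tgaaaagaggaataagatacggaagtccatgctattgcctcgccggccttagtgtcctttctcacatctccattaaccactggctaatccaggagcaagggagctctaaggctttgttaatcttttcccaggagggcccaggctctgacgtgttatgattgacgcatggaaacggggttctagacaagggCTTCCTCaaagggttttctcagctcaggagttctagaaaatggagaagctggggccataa
Tnfrsf12a, chr17:23677450-23677699, minus strand: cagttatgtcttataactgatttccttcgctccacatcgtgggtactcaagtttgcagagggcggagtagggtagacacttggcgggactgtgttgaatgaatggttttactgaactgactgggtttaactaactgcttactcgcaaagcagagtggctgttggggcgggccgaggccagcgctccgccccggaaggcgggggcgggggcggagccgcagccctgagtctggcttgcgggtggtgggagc
Cd164, chr10:41519250-41519499, plus strand: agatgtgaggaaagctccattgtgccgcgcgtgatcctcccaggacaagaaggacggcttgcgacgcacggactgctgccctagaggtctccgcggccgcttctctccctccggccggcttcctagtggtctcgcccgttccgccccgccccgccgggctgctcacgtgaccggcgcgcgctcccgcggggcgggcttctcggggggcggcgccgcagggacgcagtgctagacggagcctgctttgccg
The Clec4a2, Tnfrsf12a and Cd164 windows lie just outside the annotated gene, and those of Itgb7 and Cd63 wholly inside the annotated span of their own gene, which has other starts further upstream. Cd63 holds the PU.1-type core on the minus strand with its first base at -60, and Itgb7 the HNF4 core on the plus strand at -246. The other 3 windows hold none of the 3 cores.

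A window was found for 57 of the 81 members, 63 windows in all. Of these members 3 had more than 1 window, among them Cd82, so windows are not separate members. Members higher in spleen had 20 windows, of which 4 (20.0%) held GAGGAAG, namely 1 each of Cd200r3, Cd63, Cd82 and Fcgr1. The share was 10.6% of all 32851 windows of the same length and 9.95% of the windows of genes tested on the arrays. Among members not called the share was no lower than in spleen, at 3 of 13 windows (23.1%), and it was 3 of 24 (12.5%) among members not tested. TGTGGTT was found in 2 of the 20 (10.0%, Cd96 and Tnfrsf13c), against 4.40% of all windows and 3.57% of those of tested genes. CAAAGTC was found in 3 of the 20 (15.0%, in Cd82, Cd96 and Itgb7), against 3.84% of all windows and 3.2% of those of tested genes. Of the windows of members not called 0 held either core, and of those not tested 0 held TGTGGTT and 1 held CAAAGTC (Cd302). Among the 6 windows of members higher in liver, 1 held GAGGAAG (Clec16a), 1 held TGTGGTT (Cd59a) and 0 held CAAAGTC. These matches describe letters in a window and are not evidence of binding.

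More of the members were higher in spleen than in liver. Of the 45 with a ratio on all 3 arrays, 21 were higher in spleen, 7 were higher in liver and 17 did not pass the test (limma, Benjamini-Hochberg adjusted p under 0.05 over all 5731 genes tested). In all genes tested 54.9% were called, 27.8% higher in spleen and 27.1% higher in liver, against 62.2%, 46.7% and 15.6% of the members. At least 2-fold differences were called for 11 members (24.4%) in spleen and 4 (8.89%) in liver, against 11.9% and 13.4% of all genes. The median log2 ratio of the 45 was -0.36, against -0.03 for all genes, and their means ran from -2.67 (Itgb7) to 1.95 (Tnfrsf12a). Without array 1 the members called fell from 28 to 17, 13 of them higher in spleen and 4 higher in liver. In the same setting all genes called fell from 3146 to 1873 of 5731.

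**Figure D1:**
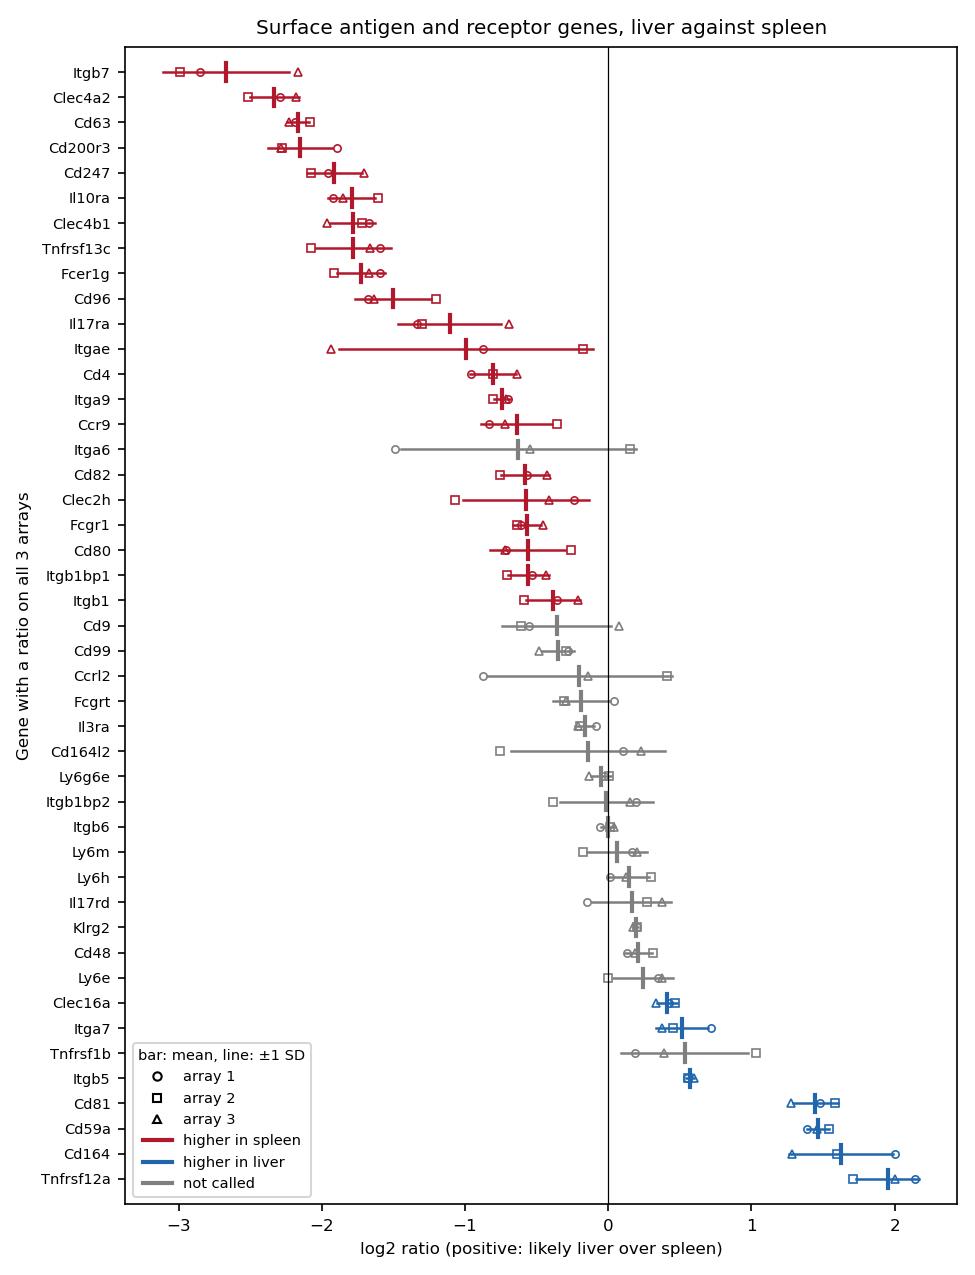
Log2 ratios (x axis) of the 45 genes with a ratio on all 3 arrays, 1 row per gene; symbols are the 3 arrays, the upright bar is their mean and the line is ±1 SD. Red genes were higher in spleen (21), blue genes higher in liver (7) and grey genes were not called (17).

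**Figure D2:**
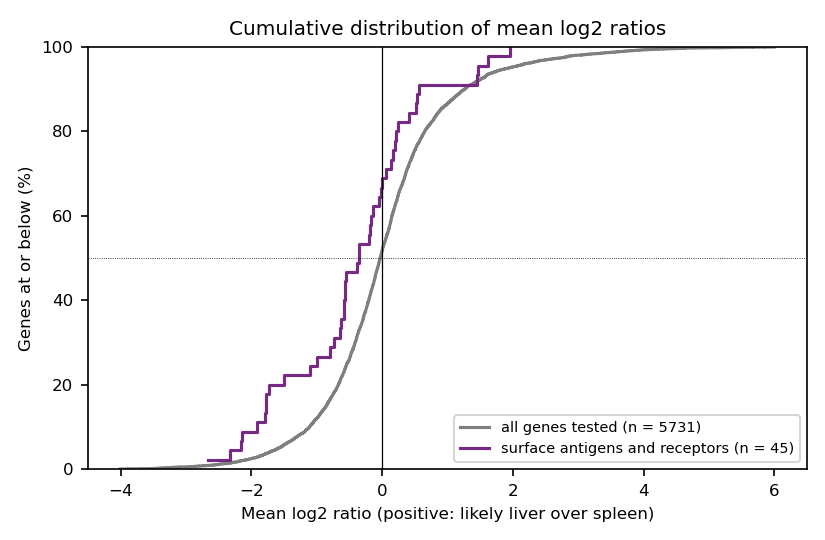
Share of genes (y axis, %) with a mean log2 ratio at or below the value on the x axis, for the 45 surface antigen and receptor genes and for all 5731 genes tested. The curve of the 45 lies to the left over most of its range, with a median of -0.36 against -0.03, and ends at 1.95.

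The lectin genes Clec4a2 and Clec4b1 and the Fc receptor gamma chain were higher in spleen. Clec4a2, the dendritic cell immunoreceptor with an ITIM, had log2 ratios of -2.30, -2.51 and -2.18 on arrays 1, 2 and 3. The 3 arrays gave a mean of -2.33 ± 0.17 (SD, n = 3), 5.03-fold higher in spleen (limma adjusted p = 0.000105). Clec4b1, a related lectin of dendritic cells that signals through the Fc receptor gamma chain, read -1.67, -1.72 and -1.97, with a mean of -1.78 ± 0.16 (3.44-fold, limma adjusted p = 0.000223). All 6 of these values lay below -1.6, and the arrays of each gene differed by less than 0.4.

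That gamma chain itself, Fcer1g, which passes on signals from IgE and IgG receptors, was higher in spleen as well. Its ratios were -1.59, -1.91 and -1.67, a mean of -1.72 ± 0.17 (3.31-fold, limma adjusted p = 0.000263). Cd200r3, an activating receptor of the CD200 receptor family found on basophils and mast cells, had -1.89, -2.28 and -2.28 (mean -2.15 ± 0.22, 4.44-fold, limma adjusted p = 0.000172). It was the 1 gene tested of 6 myeloid and endothelial CD antigens. Each of these 4 genes was measured by 1 spot, and none of their arrays came near 0.

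The other lectins differed less. Of the 10 Clec and Klr genes, 5 were tested. Of these, 3 were higher in spleen, 1 was higher in liver and 1, Klrg2 (0.19 ± 0.02), was not called. The shares of all genes tested were 27.8% in spleen and 27.1% in liver. Clec2h, of the Clr family of ligands for killer cell receptors, averaged -0.58 ± 0.44 (limma adjusted p = 0.0466), and lost its call whichever array was left out (adjusted p from 0.0791 to 0.101). Its 2 clones disagreed: 1 gave -1.04, -1.07 and -0.79, and the other 0.56 on array 1 and -0.04 on array 3. Clec16a, which has no role as a leukocyte receptor, was the gene higher in liver, at 0.43, 0.47 and 0.33 (mean 0.41 ± 0.07, limma adjusted p = 0.0277), and its call was likewise lost whichever array was left out (0.0576 to 0.158).

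Of the 4 Fc receptor genes, 3 were tested and 2 were called (66.7%, against 54.9% of all genes), both in spleen. Fcgr1 and Fcgrt, however, depended on the clone that was read. Fcgr1 encodes the high-affinity IgG receptor of macrophages. It had 4 spots of 1 AU clone, which averaged -0.90, -1.06 and -0.71 on the 3 arrays, and 1 spot of a BG clone at 0.55, 1.06 and 0.54. The clones thus lay on opposite sides on every array, and the gene mean of -0.57 ± 0.10 (limma adjusted p = 0.00960, higher in spleen) is a mixture that weights the repeated clone. Without the AU clone Fcgr1 was higher in liver, at 0.72 (limma adjusted p = 0.0110). Its other alternatives stayed on the spleen side, with adjusted p from 0.00197 to 0.0884.

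Fcgrt encodes the neonatal Fc receptor, which protects IgG and albumin from breakdown and is well known in liver. An AW clone, printed 4 times, averaged -0.65, -1.19 and -0.89. A BG clone gave 1.55, 1.23 and 1.22, and an AK clone 0.62, 0.52 and 0.56. A second AK clone read 0.74 on array 1 and -0.01 on array 2. With all spots averaged the gene was not called (-0.19 ± 0.20, limma adjusted p = 0.270). Without the AW clone it was higher in liver, at 0.81 (limma adjusted p = 0.00424), with its largest spot alone it stood at 1.33 (0.000460), and with the median over spots it was higher in spleen, at -0.62 (0.00866), a range of 0.000460 to 0.540 over its alternatives.

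Clones of 1 gene on opposite sides were no rarity on these arrays. Of 16 members with more than 1 clone, 5 had clones whose means lay on opposite sides of 0 (31.2%), against 36.1% of 2266 such genes overall. Besides Fcgr1, Fcgrt and Clec2h these were Itga6 and Itgb6, the latter with both clones within 0.1 of 0. The median range between clone means was 0.30 over the 16 members and 0.52 over the 2266 genes. Spots that repeat 1 clone also differed, with a median range of 0.44 over 5 members' clones and 0.33 over 349 clones in all, where some spots lacked an array. Of the 4 spots of Cd81, 3 averaged 1.66, 1.66 and 1.71 and the other 0.76.

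**Figure D3:**
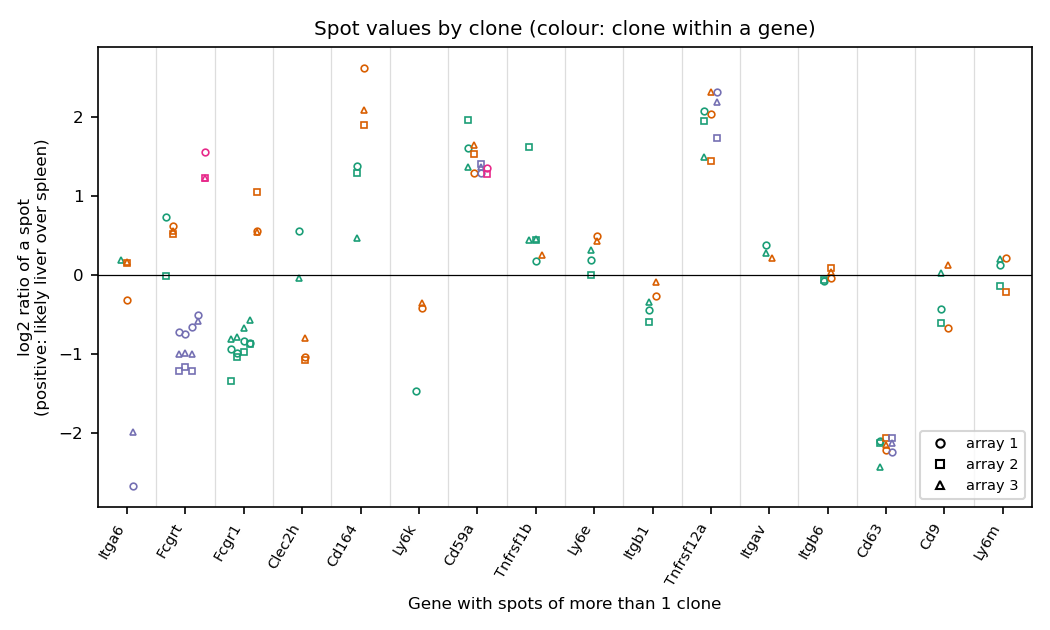
Log2 ratios of single spots (y axis) for the 16 genes with spots of more than 1 clone (x axis), ordered by the range between clone means; each column of symbols is 1 spot, symbols are arrays and colours are clones within a gene. Fcgrt and Fcgr1 have clones on both sides of 0, while all clones of Cd63 lie near -2.2 and all clones of Tnfrsf12a and Cd59a above 1.2.

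The T-cell and NK-cell genes Cd247, Cd96 and Cd4 were higher in spleen, whereas the broader leukocyte gene Cd48 was not called. Cd247, the zeta chain that carries most ITAMs of the T-cell receptor, had -1.96, -2.08 and -1.70 (mean -1.91 ± 0.19, 3.77-fold, limma adjusted p = 0.000211). Cd96, an adhesion receptor of T and NK cells, had -1.68, -1.20 and -1.64 (mean -1.50 ± 0.26, 2.84-fold, limma adjusted p = 0.000613). All arrays of both genes lay below -1.1, so the sign did not rest on any single array.

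Of the 9 lymphocyte CD antigens, 5 were tested and 4 were higher in spleen (80.0%, against 27.8% of all genes). The T helper co-receptor Cd4 differed less than Cd247, at -0.96, -0.81 and -0.64 (mean -0.80 ± 0.16, limma adjusted p = 0.00340). Cd80, a costimulatory ligand of antigen-presenting cells, stood at -0.56 ± 0.26 (limma adjusted p = 0.0211) and lost its call without array 1 (0.144) or array 3 (0.0895). Cd48, a ligand found on most leukocytes, was the gene not called, with 0.13, 0.32 and 0.19 on a single spot.

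The integrin beta 7 chain, Itgb7, had the largest ratio of the 45 members tested on the spleen side, and ranked 49 of 5731 genes from the spleen end. It pairs with the alpha 4 or alpha E chain to guide lymphocytes to mucosal tissue. Its single spot read -2.85, -2.99 and -2.17, a mean of -2.67 ± 0.44 (6.36-fold, limma adjusted p = 0.000235). Itgae, the alpha E chain, gave -0.88, -0.17 and -1.93 on its single spot. These arrays were spread more widely than for any other member tested, and the mean of -0.995 ± 0.89 was called at an adjusted p of 0.0470 by limma but not without array 1 (0.147) or array 3 (0.120), with array medians subtracted (0.0534) or with arrays scaled (0.0709).

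Of 15 integrin-symbol genes 10 were tested, 5 were higher in spleen, 2 were higher in liver and 3 were not called. All genes tested had 27.8% higher in spleen and 27.1% higher in liver. Itga9, an alpha chain that pairs with beta 1, read -0.70, -0.80 and -0.72 (mean -0.74 ± 0.06, limma adjusted p = 0.00321). Itgb1, the beta 1 chain shared by matrix receptors of most cells, stood just inside the threshold at -0.39 ± 0.19 (limma adjusted p = 0.04996; 0.0186 to 0.189 over its alternatives), and lost its call whichever array was left out. Itgb1bp1, which binds the tail of that chain, stood at -0.56 ± 0.14 (limma adjusted p = 0.0122; 0.0873 without array 1).

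Itga6, the laminin-binding alpha 6 chain of platelets and many epithelia, was not called (-0.63 ± 0.82, limma adjusted p = 0.135), but without array 2 it was higher in spleen at -1.02 (0.000558; 0.000558 to 0.993 over its alternatives). Its clones differed: a RefSeq clone read -2.66 on array 1 and -1.98 on array 3 and had no ratio on array 2, while an AK clone read -0.32, 0.15 and 0.16. On the liver side, Itgb5, a beta chain that pairs with alpha V as a vitronectin receptor, read 0.55, 0.56 and 0.60 (mean 0.57 ± 0.03, limma adjusted p = 0.00810; 0.0733 without array 1). Itga7, a laminin receptor chain of muscle, read 0.72, 0.45 and 0.37 (mean 0.52 ± 0.18, limma adjusted p = 0.0188, and 0.146 without array 1). Its array 3 value averages 2 spots of 1 clone, at 0.50 and 0.24, the latter with a ratio on array 3 only. With the complete spot alone the mean was 0.56 (limma adjusted p = 0.00972). Itgb6 and Itgb1bp2 had means of 0.00 and -0.01 and were not called.

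In the TNF receptor family, with 3 of 8 genes tested, the leading genes lay on opposite sides. Tnfrsf13c, the receptor for the B-cell survival factor BAFF, had -1.59, -2.08 and -1.67 (mean -1.78 ± 0.26, 3.43-fold higher in spleen, limma adjusted p = 0.000362). Tnfrsf12a, called Fn14, the receptor for the cytokine TWEAK that is found on many non-immune cells, had 2.14, 1.71 and 2.00 (mean 1.95 ± 0.22, 3.86-fold higher in liver, limma adjusted p = 0.000220). Its 3 clones averaged 1.84, 1.93 and 2.08, so each lay on the liver side. Tnfrsf1b, the second TNF receptor, read 0.18, 1.03 and 0.39 and was not called (limma adjusted p = 0.0592). These arrays rest on different spots: on array 2, spots of 1 clone read 1.62 and 0.44, and the first had no ratio on array 1. With only spots complete on all arrays Tnfrsf1b was higher in liver, at 0.36 (limma adjusted p = 0.0449, and 0.0449 to 0.253 over its alternatives).

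Among the 4 interleukin receptors tested of 6, 2 were higher in spleen, against 27.8% of all genes. Il10ra, the ligand-binding chain of the receptor for the anti-inflammatory IL-10, had -1.92, -1.60 and -1.85 (mean -1.79 ± 0.17, 3.46-fold higher in spleen, limma adjusted p = 0.000226). Il17ra, the common chain for IL-17 cytokines, had -1.33, -1.30 and -0.69 (mean -1.11 ± 0.36, 2.16-fold, limma adjusted p = 0.00311). Arrays 1 and 2 nearly coincided for Il17ra and array 3 was smaller. Il3ra (-0.17 ± 0.07) and Il17rd (0.16 ± 0.28) were not called.

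Of the chemokine receptors, Ccr9, which guides lymphocytes to gut and thymus, was higher in spleen at -0.84, -0.36 and -0.72 (mean -0.64 ± 0.25, limma adjusted p = 0.0125), and lost its call without array 1 (0.106) or array 3 (0.0568). Ccrl2, a chemerin-binding receptor, had mixed signs, at -0.87, 0.41 and -0.14, and was not called (limma adjusted p = 0.522), but without array 2 it was higher in spleen at -0.51 (0.0318; 0.0318 to 0.703 over its alternatives). None of the 4 Ly6-family genes tested (Ly6e, Ly6g6e, Ly6h and Ly6m) was called by limma (0 also at an unadjusted p under 0.05), and their means ran from -0.05 to 0.24. Of all genes tested, 54.9% were called.

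Tetraspanins of many cell types were split between the tissues. Cd63, the tetraspanin of lysosomes and secretory granules, was higher in spleen, with -2.19, -2.08 and -2.23 (mean -2.16 ± 0.08, 4.48-fold, limma adjusted p = 0.000104). Its 3 clones averaged -2.14, -2.14 and -2.22, the closest agreement between clones of any called member with several. Cd82, another tetraspanin, stood at -0.58 ± 0.17 (limma adjusted p = 0.0116; 0.0849 without array 1).

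The tetraspanin Cd81, the complement regulator Cd59a and the sialomucin Cd164 were higher in liver. Cd81, the tetraspanin that forms part of the B-cell co-receptor and is also found on hepatocytes, had 1.48, 1.59 and 1.28 (mean 1.45 ± 0.16, 2.72-fold, limma adjusted p = 0.000427). All 4 of its spots came from 1 AW clone. Cd59a, which blocks the membrane attack complex of complement, had 1.39, 1.54 and 1.46 (mean 1.46 ± 0.08, 2.76-fold, limma adjusted p = 0.000333), and its 4 clones averaged from 1.32 to 1.65. Cd164, a sialomucin, had 2.00, 1.60 and 1.28 (mean 1.63 ± 0.36, 3.09-fold, limma adjusted p = 0.000785), with clones at 1.05 and 2.20.

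Cd81 and Cd59a thus differed between the tissues by nearly the same amount, with no overlap of either with 0 on any array. In all genes tested 27.8% were higher in spleen and 27.1% higher in liver. Of the 14 broadly expressed CD antigens, 8 were tested, 2 were higher in spleen, 3 were higher in liver and 3 were not called. The last were Cd9 (-0.36 ± 0.38), whose arrays had both signs and which was higher in spleen without array 3 (-0.58, limma adjusted p = 0.0320; up to 0.432 over its alternatives), Cd99 (-0.35 ± 0.11, limma adjusted p = 0.0504) and Cd164l2 (-0.14 ± 0.54).

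A further 15 members had a ratio on 2 arrays only and stayed outside the test. In a fit that took genes with at least 2 arrays, 5 of them were higher in spleen, 4 higher in liver and 6 not called, where 47.8% of 6919 genes were called, 24.8% in spleen and 23.0% in liver. Itgax, the CD11c chain that marks dendritic cells, read -2.33 and -1.51 on arrays 1 and 3 (limma adjusted p = 0.00385). Tnfrsf17, the plasma cell receptor BCMA, read -1.94 and -1.52 on the same arrays (0.00217), and Cd46, a complement regulator, -1.36 and -1.81 (0.00305).

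Klra2, of the Ly49 family of NK receptors, read -1.15 and -0.80 (limma adjusted p = 0.0114), and Ccr2, the receptor that brings monocytes into tissue, -0.71 and -0.47 (0.0433). All 5 genes on the spleen side lacked array 2. The 4 on the liver side lacked array 1 instead: Cd302, a C-type lectin, read 4.05 and 1.63 on arrays 2 and 3 (limma adjusted p = 0.0169), Cd24a, an antigen of B-cell precursors and epithelia, 1.69 and 0.69 (0.0252), Cd99l2 1.28 and 1.07 (0.00501), and Il6ra, the hepatocyte receptor chain for IL-6, 1.28 and 0.52 (0.0344). For all 4 the value on array 2 was the larger. The genes not called were Cd248, Clec11a, Itgav, Ly6k, Tnfrsf18 and Tnfrsf21, with means from -0.93 to 0.32.

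The remaining 21 members had a ratio on 1 array. Cd69, the early activation antigen of lymphocytes, read -3.23 on array 1, and Cd36, a scavenger receptor, -0.76 on array 3. The other 19 (Cd1d1, Cd209b, Cd300lg, Cd44, Cd55, Cd55b, Cd68, Cd7, Clec10a, Clec12b, Clec2g, Cxcr4, Fcgr2b, Il10rb, Itga8, Itgb2l, Itgb4, Tnfrsf10b and Tnfrsf22) had a ratio on array 3 only, from 0.03 to 0.40. Of 858 genes measured on array 3 alone, 78.0% lay between 0 and 0.4 and 89.6% above 0, with quartiles of 0.19, 0.25 and 0.31 and a range from -1.69 to 4.97. The ratios of these 19, among them leukocyte genes such as the B-cell and macrophage inhibitory receptor Fcgr2b (0.29) and the macrophage antigen Cd68 (0.12), were therefore not read as higher in liver. The signal behind these spots is unknown.

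**Figure D4:**
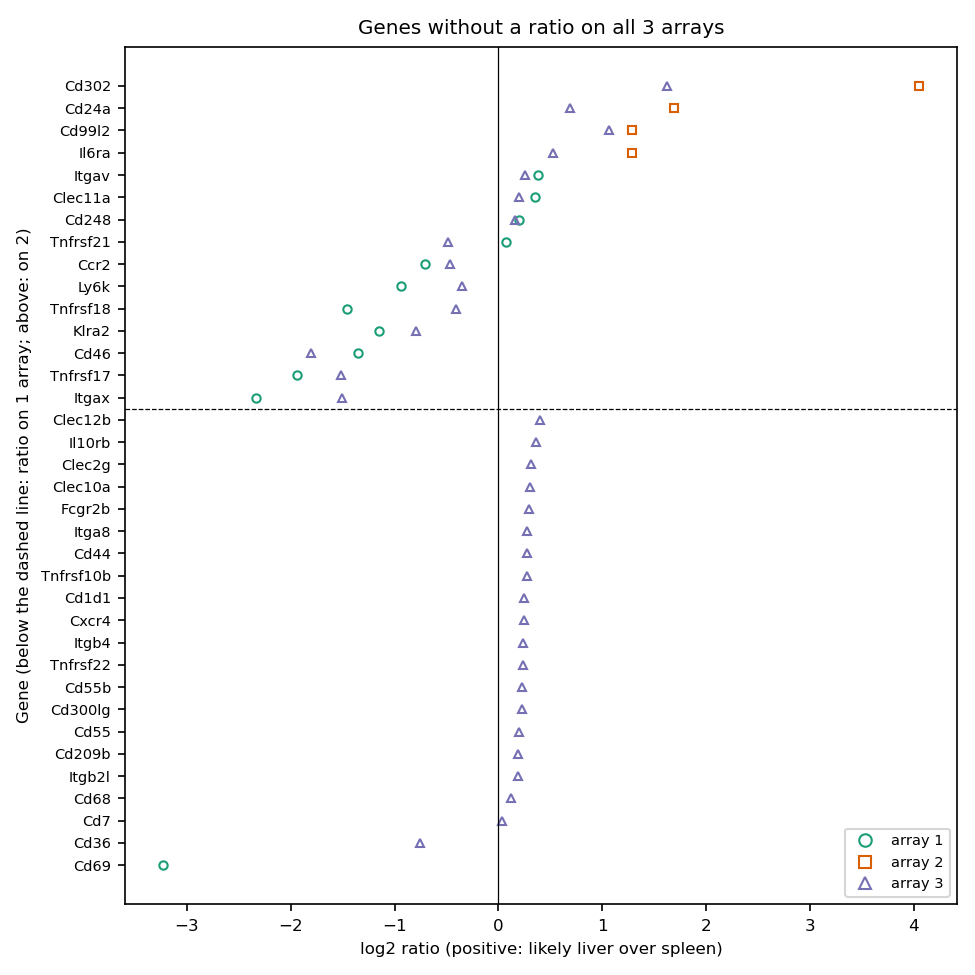
Log2 ratios (x axis) of the 36 genes without a ratio on all 3 arrays, 1 row per gene, with symbols and colours for the arrays. Below the dashed line are 21 genes with 1 ratio, 19 of them on array 3 between 0.03 and 0.40; above it are 15 genes with 2 ratios.

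Genes that signal below these and related receptors were listed apart from the members. The related ones include the B-cell receptor, which is not a member. These lists were chosen with earlier results of these data known, so their counts describe the chosen genes and are not independent support. All 13 tested of 47 genes of ITAM and B-cell receptor signalling were higher in spleen, with a median log2 ratio of -1.80; all genes had 27.8% higher in spleen. Blnk, the adaptor below the B-cell receptor, led at -3.22, -2.99 and -2.67 (mean -2.96 ± 0.27, 7.77-fold, limma adjusted p = 8.54e-05). Without array 1, 11 of the 13 were called, all in spleen, and with each gene's own variance 7 were. Of 12 tested genes of G-protein signalling below chemokine receptors, 11 were higher in spleen (median -1.44). Rgs2, a regulator of G-protein signalling, led at -2.97 ± 0.27 (limma adjusted p = 8.33e-05). Rac1 was not called (0.13 ± 0.12). With own variances 6 of the 12 were called.

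The other lists were less one-sided. The shares of all genes to set beside each of these lists were 27.8% in spleen and 27.1% in liver. Of 8 integrin ligands and linkers, spleen had 4 calls and liver 1 (median -0.64): Rassf5, the Rap1 effector that activates lymphocyte integrins, stood at -2.05 ± 0.21 (limma adjusted p = 0.000188) and Parva, an adaptor of focal adhesions, at 1.19 ± 0.12 (0.000710). Of 9 other cytokine receptors, spleen had 5 calls and liver 2 (median -0.49). Ifngr1, the interferon gamma receptor chain, stood at -1.78 ± 0.29 (limma adjusted p = 0.000411). Lifr, which receives leukaemia inhibitory factor together with gp130, stood at 2.49 ± 0.06 (6.75e-05), higher than any member tested. Without array 1, 2 of the 5 calls in spleen were left.

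Among 8 TNF receptor adaptors and NF-kappaB genes, spleen had 4 limma calls and liver 0, also 0 at an unadjusted p under 0.05 (median -0.37), with the adaptor Traf1 at -2.49 ± 0.57 (limma adjusted p = 0.000509). That count was 2 without array 1 or without array 3, and 0 with own variances (1 at an unadjusted p under 0.05). Among 11 JAK-STAT genes, spleen had 4 calls and liver 1 (median -0.12): the STAT inhibitor Pias1 stood at -0.94 ± 0.14 (limma adjusted p = 0.00175), and the phosphatase Ptpn11 at 0.51 ± 0.04 (0.0124). Without array 1, 1 limma call in spleen and 0 in liver were left (1 in liver at an unadjusted p under 0.05).

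Of 19 ligands listed for these receptor families, 4 were higher in spleen, 3 were higher in liver and 12 were not called. That was 36.8% called against 54.9% of all genes, and without array 1 the counts were 2 and 1. Not every ligand has its receptor among the members: Cxcr3, the receptor of Cxcl10, is no member. The chemokine Cxcl10 stood at -1.59 ± 0.20 (limma adjusted p = 0.000390) and Ccl25, the ligand of Ccr9, at 1.13 ± 0.29 (0.00196), on the side opposite to its receptor. A pair of TNF-family ligands was picked out after their values were seen, because their receptors are members. TWEAK (Tnfsf12), the ligand of Fn14, read 0.44, 0.82 and 0.28 (mean 0.52 ± 0.28, limma adjusted p = 0.0302), on the same side as Tnfrsf12a. APRIL (Tnfsf13), a ligand of BCMA, read -1.33, -1.07 and -1.16 (mean -1.19 ± 0.13, limma adjusted p = 0.000734), on the same side as Tnfrsf17.

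**Figure D5:**
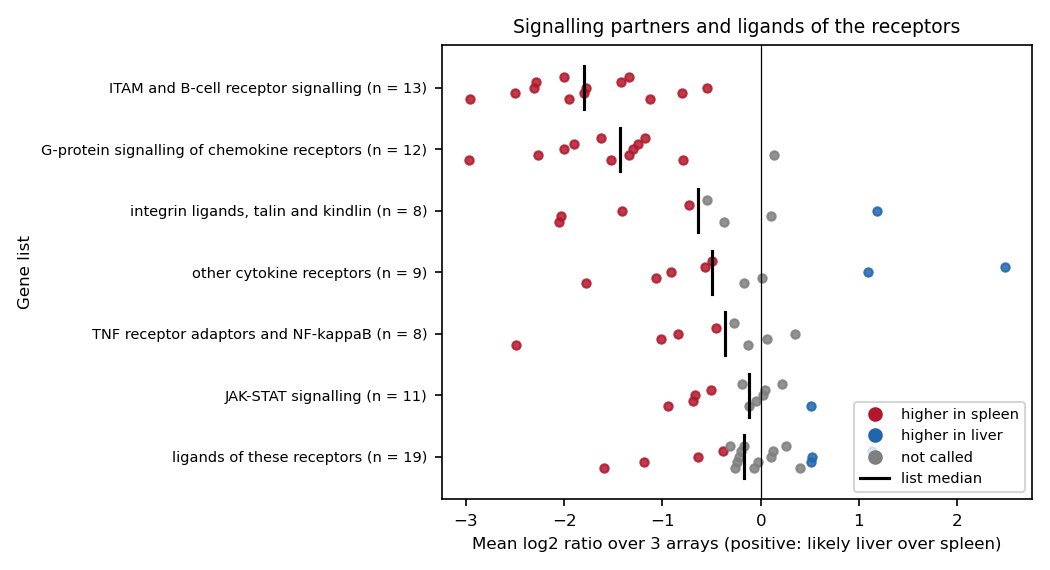
Mean log2 ratios over 3 arrays (x axis) of the tested genes of 7 lists of signalling partners and ligands (y axis); each point is a gene, red higher in spleen, blue higher in liver and grey not called, and the black bar is the list median. All 13 ITAM genes and 11 of 12 G-protein genes are red, with medians of -1.80 and -1.44, whereas the 19 ligands centre on -0.17. The lists were chosen with earlier results of these data known.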

How the data were processed

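Spleen and liver RNA of the mouse was compared on 3 two-colour cDNA arrays. The values deposited by the authors are log2 ratios, 1 for a spot on an array, and log2 was inferred from their upper limit of 6.64. Their background correction, normalization and numerator channel were not given in the sources used here. Scale and centring are those deposited, with array medians of -0.02, 0.03 and 0.05 over the spots with a ratio. An exact 0 (1063 to 5153 spots per array) was taken as missing.

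Spots with a single gene in the platform annotation (12336) were used, with symbols updated through RefSeq names (GRCm38.p6), and a gene's spots were averaged on each array. The 5731 genes with a ratio on all 3 arrays entered limma 3.58.1 (R 4.3.3), which tested the mean ratio against 0 (lmFit and eBayes, two-sided; 3.51 prior degrees of freedom beside 2 residual ones, prior SD 0.24), with Benjamini-Hochberg adjustment over all of them. Genes with an adjusted p under 0.05 were called. The fit was checked on simulated data. Errors are SD over arrays, and 3 arrays limit the precision.

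Members, partner lists and motifs were chosen with earlier results of these data known. Every member is accounted for. Values per array are given for called members with a mean log2 ratio of at least 1 in size, for the leading called member on each side of each family and for clones on opposite sides; from partner lists, the leading called gene on each side is named. Alternatives covered exact zeros, centring, scaling, the number of arrays, the choice of spots and clones, the variance, a test of a 2-fold difference, and each array left out; ranges of adjusted p over alternatives leave out the 2-fold test. Sequences come from RefSeq's upstream windows.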

Additional observations from a re-analysis of the deposited data

How the results depend on the processing

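All 15 members with an at least 2-fold difference were called in the same direction without any 1 of the arrays, with exact zeros as values, and with array medians subtracted, arrays scaled, genes with 2 arrays admitted, the median over spots or the largest spot. Of the 28 calls in all, 17 were kept without array 1. Members called ranged from 17 to 27 with 1 array left out, those higher in spleen from 13 to 21, those higher in liver from 4 to 6, and all genes called from 1873 to 3168. With each gene's own variance, 1461 genes and 18 members were called, 12 of them in spleen, and 17 of the 28 calls were kept. Of the 15 with an at least 2-fold difference 13 were kept. Those lost were Cd164 (t-test with own variance, adjusted p = 0.0559) and Il17ra (0.0841). When a 2-fold difference itself was tested, 692 genes and 12 of the 28 called members passed, 9 in spleen and 3 in liver. Of the 15 with an at least 2-fold difference, Cd81, Cd96 and Il17ra did not pass. With at least 2 arrays, 11 members were higher in liver, because 15 more were tested. Without AW and AU clones Fcgr1 turned to 0.72 and Fcgrt to 0.81, and with its largest spot Fcgrt turned to 1.33; Cd81 has no other clone. Without the 4 members that are no surface receptor, 20 were higher in spleen and 6 in liver, an alternative added after seeing the data. Each ratio already pairs the tissues within an array, so the test against 0 is a paired one and there is no further replicate block to fit. Signal over background could not be read from ratios.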
